A study of Mus musculus with 24 samples.

Results

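The genes described here are 10 regulators of the G1 phase of the cell cycle: the D cyclins Ccnd1, Ccnd2 and Ccnd3, the cyclin-dependent kinases (CDKs) Cdk4 and Cdk6, the phosphatase gene Cdc25a, the CDK inhibitors Cdkn1b and Cdkn1c, and the E2F factors E2f5 and E2f6. They were chosen by symbol, and all 10 were listed among the 24970 gene symbols of each of 4 tables of expression values. In mouse lung, RNA was sequenced after loss of let-7 microRNAs in alveolar type 2 (AT2) cells, the surfactant-making cells that also renew the alveolar lining. Knockout mice were labelled let7afd-/- in addition to Sftpc-CreER/+ and R26-tdT/+, and control mice carried Sftpc-CreER/+ and R26-tdT/+ alone. All mice of both genotypes received tamoxifen, which switches on the CreER recombinase, and the Sftpc promoter limits the recombinase to cells that express surfactant protein C. Sorted AT2 cells were taken after 6 days of tamoxifen, with 3 knockout and 3 control libraries, each a pool of 3 mice. Whole lungs came from 3 knockout and 3 control mice at 6 days and from 4 knockout and 4 control mice after 6 months with booster tamoxifen. Organoids were grown for 14 days from AT2 cells of 2 knockout and 2 control mice, likewise after 6 days of tamoxifen. The labels gave no age or sex.

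D cyclins are made when growth signals arrive. They bind and activate Cdk4 and Cdk6, which phosphorylate the retinoblastoma protein so that E2F factors are released and genes of DNA replication are switched on. Cdc25a removes an inhibitory phosphate from CDKs, while Cdkn1b (p27) and Cdkn1c (p57) bind cyclin-CDK complexes and hold them back. E2f5 and E2f6 act mostly as repressors. The let-7 microRNAs are known to lower transcripts that carry a match to their seed, and cell-cycle genes of this set are among the targets studied in other cells.

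The deposited labels name the deleted microRNAs together as let7afd. The precursors of let-7a-1, let-7f-1 and let-7d lie within 2261 bases of each other on chromosome 13 (chr13:48536012-48538272, GRCm38.p6, minus strand). Their mature forms are shown because their seed, bases 2 to 8 in capitals, defines the sites searched for in the G1 genes; sequences are from RefSeq.
let-7a-5p: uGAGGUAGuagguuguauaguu
let-7f-5p: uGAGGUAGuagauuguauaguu
let-7d-5p: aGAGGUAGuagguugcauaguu
All 9 mature let-7 family members in the RefSeq table carried the same seed GAGGUAG, so the site alone does not separate products of the deleted loci from those of the loci that remain. In that table mature let-7f-5p is also listed from Mirlet7f-2 on chromosome X, outside this cluster. Whether the table holds every let-7 locus was not checked, so other sources of the same mature forms may exist.

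Of the 10 G1 genes, 7 held at least 1 let-7 site in the longest annotated 3′ UTR (GENCODE, GRCm38). A site was CTACCTC or TACCTCA on the transcript strand, 7 bases each, or the 8 bases CTACCTCA that contain both. Of 19820 genes searched, 15.5% held such a site and 3.19% the 8-base form. The sites of the 7 genes are shown with 16 bases before and 4 after them, all in the last exon, with the seed match in capitals.
Ccnd1, chr7:144930598-144930604, minus strand: aggttcctgttcacaaTACCTCAtgta
Ccnd2, chr6:127128300-127128306, minus strand: caaagagagtattcttTACCTCAggtt
Ccnd2, chr6:127128222-127128228, minus strand: cttttcgttttcctaaTACCTCAcagc
Ccnd2, chr6:127125586-127125592, minus strand: ttatccttctgccatgTACCTCAgatc
Cdk4, chr10:127067673-127067679, plus strand: tcctagggcccgaggcCTACCTCccct
Cdk6, chr5:3521639-3521645, plus strand: atttaaggagtgagtgTACCTCAgata
Cdc25a, chr9:109892747-109892753, plus strand: tttatcatcctaggagCTACCTCtact
E2f5, chr3:14605744-14605750, plus strand: aacttgggactattatCTACCTCtata
E2f6, chr12:16826418-16826425, plus strand: aatcacctagcgctctCTACCTCAgtgg
Ccnd2 held 3 sites in a 3′ UTR of 5173 bases, and 44.9% of genes with a 3′ UTR within 1.25 times that length held one or more. The same share was 73.3% at the length of Cdk6, 26.1% for Ccnd1, 18.4% for Cdc25a and 15.1% for E2f6. It was 10.9% for Cdk4 and 7.0% for E2f5. For the genes without a site it was 31.1% for Cdkn1b, 11.1% for Ccnd3 and 7.8% for Cdkn1c. E2f6 was the single gene of the set with the 8-base site. Ccnd3, Cdkn1b and Cdkn1c held none of these letters in their 3′ UTRs of 915, 3439 and 688 bases. A site in this list is a match of letters, and binding was not measured.

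Values were TPM (transcript abundance corrected for length and scaled to a fixed sum per library), which do not keep read numbers, so the depth and counting error of each library are unknown. Each table was normalized by itself, so levels set across tables below are given without a test. Fold changes are differences of log2(TPM + 1), knockout minus control, with the moderated SE of limma, and they understate the change of genes with low TPM. A gene was called at a Benjamini-Hochberg adjusted p under 0.05 over all genes tested in that table, two-sided. In bulk RNA, fewer cells of a type and less RNA per cell cannot be told apart.

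Sorted AT2 libraries held Sftpc at 85303 to 128668 TPM in knockouts and 141750.0 to 155065 TPM in controls, and the endothelial marker Pecam1 at 3.77 to 6.85 TPM in knockouts and 2.52 to 9.48 TPM in controls. Marco, an alveolar macrophage gene, was 5.71 to 16.4 TPM in knockout and 0.248 to 0.573 TPM in control AT2 libraries. In 6-day lungs, knockout library 3 stood apart, with a summed level of 5 erythrocyte genes of 84804 TPM, the highest of the 6 libraries. In organoids, control library 2 stood apart, with a sum of 8 AT2 markers of 12891 TPM; control library 1 held 44641 TPM and the knockouts held 71340 to 78376 TPM. For part of the results that include these libraries, values without them are given as well.

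**Figure D1:**
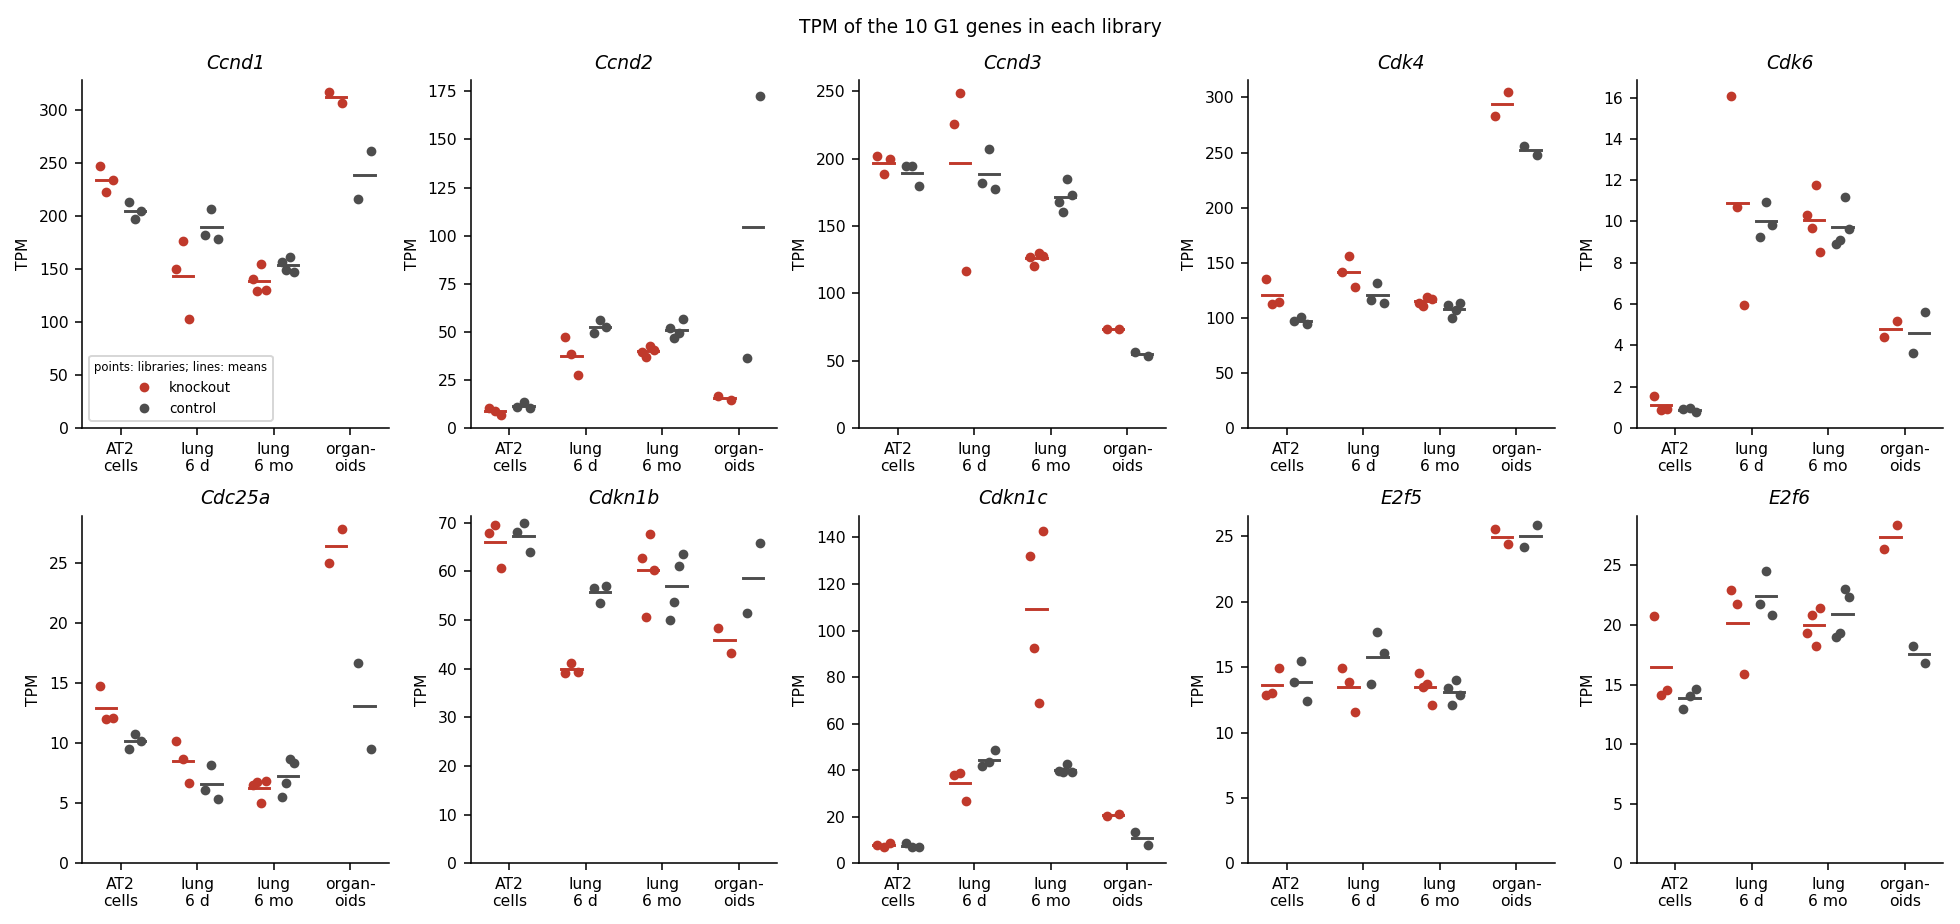
TPM (linear axis from 0) of each of the 10 G1 genes, 1 panel a gene, in AT2 cells, 6-day lungs, 6-month lungs and organoids, with knockout in red to the left of control in grey; points are libraries and lines are group means. Cdkn1c in 6-month lungs stands out, with knockouts at 69.0 to 143 TPM against controls at 39.2 to 42.5 TPM, and Ccnd2 in organoids shows the 2 controls far apart, at 36.1 and 172 TPM.

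Across the 4 kinds of sample, 3 of the 10 genes passed the test in 1 comparison each, all of them in 6-month lungs. There Cdkn1c rose 2.71-fold by group means, and Ccnd2 and Ccnd3 fell to 0.781 and 0.737 of the control mean. No G1 gene of the set passed in AT2 cells (0 of 9 tested by limma, 4 at an unadjusted p under 0.05), in 6-day lungs (0 of 10, 2 at an unadjusted p under 0.05) or in organoids (0 of 10, 6 at an unadjusted p under 0.05). Of all genes tested, 7.85% were called in AT2 cells, 6.97% in 6-day lungs, 29.8% in 6-month lungs and 0.605% in organoids. The 3 of 10 called at 6 months lie at that background. The median log2 fold change of the G1 genes was 0.08 in AT2 cells, -0.19 in 6-day lungs, -0.01 in 6-month lungs and 0.31 in organoids, beside medians over all genes of 0.08, -0.14, -0.00 and 0.06.

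**Figure D2:**
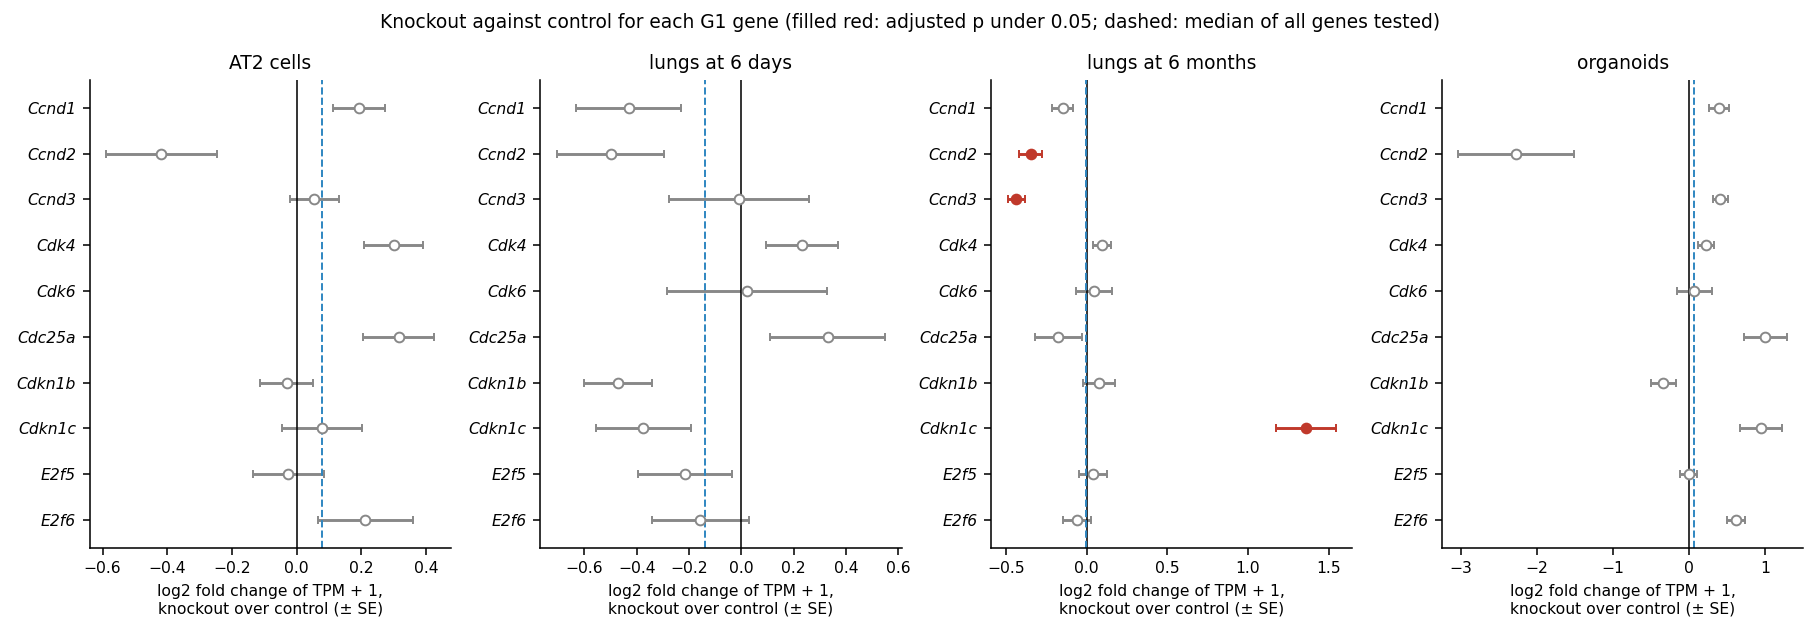
Log2 fold change of TPM + 1 (knockout over control, ± SE) of each G1 gene in the 4 kinds of sample; filled red points passed at an adjusted p under 0.05 and the dashed line is the median of all genes tested. The 3 filled points are Cdkn1c at 1.36, Ccnd2 at -0.35 and Ccnd3 at -0.44, all in 6-month lungs; Cdk6 has no point in AT2 cells because it was under the filter.

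Ccnd1 encodes cyclin D1, the D cyclin most tied to mitogen signals in epithelia. In AT2 cells it was 247, 223 and 234 TPM in knockouts, against 213, 197 and 205 TPM in controls. Every knockout library lay above every control, a log2 fold change of 0.19 ± 0.08 that did not pass (limma, adjusted p = 0.165). In 6-day lungs it was 149.9, 177 and 103 TPM in knockouts, against 182, 207 and 179 TPM in controls, all knockouts below all controls (log2 fold change -0.43 ± 0.20, limma adjusted p = 0.225). The lowest of these values is from knockout library 3. In 6-month lungs it was 140.2, 129.7, 155 and 130.3 TPM in knockouts, against 157, 149, 161 and 147 TPM in controls. These overlapped (log2 fold change -0.15 ± 0.06, limma adjusted p = 0.109). Organoids had 317 and 307 TPM in knockouts, against 217 and 261 TPM in controls, apart but not past the test (log2 fold change 0.39 ± 0.13, limma adjusted p = 0.122). The effect in AT2 cells minus that in 6-day lungs was 0.62 ± 0.22 on the log2 scale and did not pass (adjusted p = 0.218), in a comparison that called 1.06% of genes and had a median difference of 0.20. It was 0.38 ± 0.16 under median-ratio scaling and 0.41 ± 0.14 without knockout library 3 of the 6-day lungs.

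Ccnd2, cyclin D2, had lower means in knockouts than in controls in all 4 kinds of sample, and passed in 1 of them. In 6-month lungs it was 39.5, 37.0, 42.7 and 40.5 TPM in knockouts, against 51.9, 46.6, 49.6 and 56.5 TPM in controls. All 4 knockouts lay below all 4 controls, and the gene fell (log2 fold change -0.35 ± 0.07, limma adjusted p = 0.00366). In 6-day lungs it was 47.1, 38.5 and 27.4 TPM in knockouts, against 49.1, 56.1 and 52.3 TPM in controls, apart without passing (log2 fold change -0.50 ± 0.21, limma adjusted p = 0.178). In AT2 cells, where the level was low, it was 10.3, 8.92 and 6.48 TPM in knockouts, against 11.0, 13.7 and 10.2 TPM in controls. The groups overlapped by a single knockout library (log2 fold change -0.42 ± 0.17, limma adjusted p = 0.164). In organoids it was 16.6 and 14.8 TPM in knockouts, against 36.1 and 172 TPM in controls. The log2 fold change there was -2.27 ± 0.76 and did not pass (limma adjusted p = 0.117). It was -1.16 without control 2 and -3.38 without control 1, in fits that leave a single control assumed to vary like the knockouts. So the size of the Ccnd2 difference in organoids depends on which control is kept, while both controls lay above both knockouts.

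Ccnd3, cyclin D3, is best known from lymphocytes, where it drives expansion of early cells. In 6-month lungs it was 127, 120.5, 130.0 and 128 TPM in knockouts, against 168, 160.1, 185 and 173 TPM in controls. All 4 knockouts lay below all 4 controls with a wide gap, and the gene fell (log2 fold change -0.44 ± 0.06, limma adjusted p = 0.000128). In 6-day lungs it was 226, 249 and 116 TPM in knockouts, against 182, 207 and 177 TPM in controls. Knockout libraries 1 and 2 lay above all controls and knockout library 3 below them, and the log2 fold change was -0.01 ± 0.27 with all libraries and 0.33 without knockout 3. In AT2 cells the values overlapped at 202, 189 and 200.0 TPM in knockouts, against 195, 194 and 179.6 TPM in controls. In organoids it was 73.2 TPM in both knockouts, against 56.3 and 53.3 TPM in controls (log2 fold change 0.41 ± 0.10, limma adjusted p = 0.0783). The effect at 6 months minus that at 6 days was -0.43 ± 0.27 and did not pass (adjusted p = 0.494); without knockout library 3 of the 6-day lungs it was -0.77 and passed (adjusted p = 0.00371).

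Within the D cyclins, the make-up differed by kind of sample. Ccnd1 and Ccnd3 together made up nearly all D cyclin TPM in AT2 cells, where Ccnd2 was 1.47 to 2.23% in knockouts and 2.59 to 3.39% in controls. In 6-month lungs Ccnd1 was 43.6 to 47.3% of D cyclin TPM in knockouts and 39.1 to 41.9% in controls, without overlap. In organoids Ccnd1 was 77.7 to 77.9% in knockouts and 53.6 to 70.1% in controls. The summed D cyclin level in 6-month lungs was 287 to 327 TPM in knockouts and 356 to 396 TPM in controls, again without overlap. These shares are descriptions of single libraries and carry no test.

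**Figure D3:**
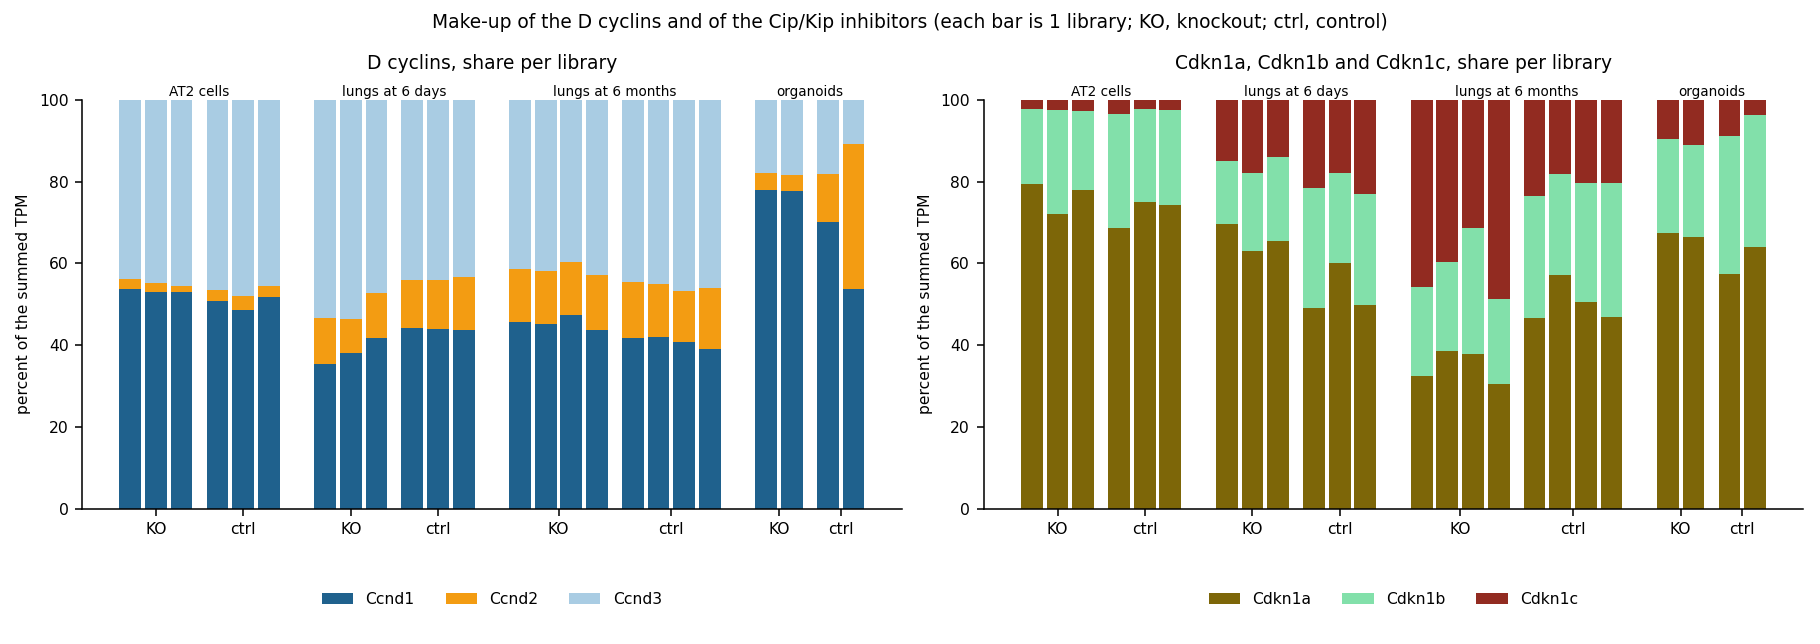
Percent of the summed TPM within the D cyclins (left) and within Cdkn1a, Cdkn1b and Cdkn1c (right), 1 stacked bar a library, with knockout (KO) left of control (ctrl) for each kind of sample. Cdkn1c takes 31.3 to 48.8% of the inhibitor TPM in knockout 6-month lungs, against 18.1 to 23.6% in controls, and Ccnd2 takes 35.4% of the D cyclin TPM in organoid control 2.

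Cdk4, a kinase partner of the D cyclins, was 135, 113 and 114 TPM in knockout AT2 cells, against 97.0, 101 and 94.5 TPM in control AT2 cells. All knockouts lay above all controls, and the difference did not pass (log2 fold change 0.30 ± 0.09, limma adjusted p = 0.0818). In organoids it was 283 and 305 TPM in knockouts, against 256 and 248 TPM in controls (log2 fold change 0.22 ± 0.11, limma adjusted p = 0.199). In lungs the groups overlapped, with means of 142 ± 13.8 TPM in knockouts and 121 ± 10.04 TPM in controls at 6 days (SD, n = 3 each) and of 115 ± 3.69 TPM in knockouts and 108 ± 6.26 TPM in controls at 6 months (SD, n = 4 each). Cdk6, the other D cyclin kinase, was 1.54, 0.878 and 0.929 TPM in knockout AT2 cells, against 0.907, 0.959 and 0.770 TPM in control AT2 cells, and was not tested there. The ratio of Cdk4 to Cdk6 was 87.7 to 128 in knockout and 105 to 123 in control AT2 libraries. In 6-month lungs it was 10.2 to 13.8 in knockouts and 9.56 to 12.6 in controls. Cdk6 overlapped between genotypes in each of the 4 kinds of sample, with log2 fold changes of 0.02 ± 0.31 in 6-day lungs, 0.04 ± 0.11 in 6-month lungs and 0.07 ± 0.23 in organoids.

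Cdc25a, the phosphatase that activates CDKs at the entry into S phase, was 14.8, 12.04 and 12.1 TPM in knockout AT2 cells, against 9.56, 10.8 and 10.2 TPM in control AT2 cells. The groups were apart but the difference did not pass (log2 fold change 0.32 ± 0.11, limma adjusted p = 0.113). In organoids it was 25.0 and 27.8 TPM in knockouts, against 16.7 and 9.55 TPM in controls. The knockout mean was 2.01 times the control mean (log2 fold change 1.00 ± 0.28, limma adjusted p = 0.0912). In lungs the groups overlapped, with log2 fold changes of 0.33 ± 0.22 at 6 days (limma adjusted p = 0.373) and -0.18 ± 0.15 at 6 months (limma adjusted p = 0.415).

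Cdkn1c, the p57 inhibitor and an imprinted gene in mice, gave the largest change of the set that passed. In 6-month lungs it was 132, 92.6, 69.0 and 143 TPM in knockouts, against 39.7, 39.3, 42.5 and 39.2 TPM in controls. Every knockout lay above every control, the knockouts spread over more than a 2-fold range and the controls lay within a few TPM of each other. The gene rose (log2 fold change 1.36 ± 0.18, limma adjusted p = 0.000218). In 6-day lungs it was 38.1, 38.9 and 26.7 TPM in knockouts, against 41.8, 43.4 and 48.6 TPM in controls, the other way round and apart, without passing (log2 fold change -0.37 ± 0.18, limma adjusted p = 0.241). The difference between the 2 effects, 6 months minus 6 days, was 1.74 ± 0.26 on the log2 scale and passed (adjusted p = 0.0013). Cdkn1c was the single one of the 10 genes called in that test, which called 2.73% of genes. In organoids it was 20.5 and 21.2 TPM in knockouts, against 13.7 and 7.80 TPM in controls (log2 fold change 0.95 ± 0.27, limma adjusted p = 0.0961). In AT2 cells the values overlapped at 7.96, 7.14 and 8.92 TPM in knockouts, against 8.58, 7.04 and 6.97 TPM in controls (log2 fold change 0.08 ± 0.12). The gene lies at chr7:143458339-143461050 (GRCm38, minus strand), and no let-7 site was found in its 3′ UTR.

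Cdkn1b, the p27 inhibitor, was the member of the set nearest to a call in 6-day lungs. It was 39.1, 41.2 and 39.4 TPM in knockouts there, against 56.6, 53.6 and 57.0 TPM in controls, a narrow spread on both sides and a wide gap between them. The log2 fold change of -0.47 ± 0.13 did not pass (limma adjusted p = 0.0701), and passed without knockout library 3 (-0.46, adjusted p = 0.0206). In 6-month lungs the groups overlapped at 60.4 ± 7.20 TPM in knockouts and 57.1 ± 6.34 TPM in controls (SD, n = 4 each). The 6-month minus 6-day difference was 0.55 ± 0.16 (adjusted p = 0.0965), and it was 0.54 and passed without knockout library 3 (adjusted p = 0.0216). Organoids had 48.5 and 43.2 TPM in knockouts, against 51.5 and 65.9 TPM in controls (log2 fold change -0.34 ± 0.16, limma adjusted p = 0.2). In AT2 cells the means were 66.0 ± 4.71 TPM in knockouts and 67.4 ± 3.05 TPM in controls (SD, n = 3 each).

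E2f6, a repressor that can occupy E2F sites at the end of S phase, was 26.4 and 28.4 TPM in knockout organoids, against 18.2 and 16.8 TPM in control organoids. Its log2 fold change of 0.61 ± 0.12 did not pass (limma adjusted p = 0.0701). In AT2 cells it was 20.7, 14.1 and 14.6 TPM in knockouts, against 12.9, 14.1 and 14.6 TPM in controls. One knockout library was high there and the other 2 lay among the controls. In lungs the groups overlapped, with log2 fold changes of -0.16 ± 0.19 at 6 days and -0.06 ± 0.09 at 6 months. E2f5, a repressor that works with pocket proteins, overlapped in all 4 kinds of sample. Its log2 fold changes were -0.03 ± 0.11 in AT2 cells, -0.22 ± 0.18 in 6-day lungs, 0.04 ± 0.08 in 6-month lungs and -0.00 ± 0.11 in organoids.

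Counted by groups without overlap, 3 of the 9 genes tested in AT2 cells lay higher in knockouts (Ccnd1, Cdk4 and Cdc25a), where 33.7% of all genes were apart. In 6-day lungs 4 of 10 lay lower (Ccnd1, Ccnd2, Cdkn1b and Cdkn1c), beside 36.2% of all genes apart in either direction. In 6-month lungs 1 lay higher and 2 lower, beside 30.6%. In organoids 6 lay higher and 2 lower, beside 71.7%, with 2 libraries on each side. These counts lie near the background in each comparison. The G1 genes with a let-7 site did not all lie on one side: in AT2 cells Cdk4, Cdc25a and Ccnd1 were apart and higher, while Ccnd2, with 3 sites, had the lowest fold change of the 9 tested.

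Over all genes tested, 6-day lungs had a median log2 fold change of -0.14, and scaling each library by its median ratio moved that median to 0.00. The scaling factor was 0.765 in knockout library 3 and 1.027 to 1.104 in the other libraries. Values relative to the median of all genes do not correct that library by itself. Relative to the median of all genes, the log2 fold changes were -0.29 for Ccnd1, -0.36 for Ccnd2, -0.33 for Cdkn1b and -0.24 for Cdkn1c, and 0.37 for Cdk4 and 0.47 for Cdc25a. No G1 gene of the set was called in 6-day lungs under median-ratio scaling or under quantile normalization.

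Without knockout library 3 of the 6-day lungs, the log2 fold changes were -0.21 ± 0.11 for Ccnd1, -0.29 ± 0.12 for Ccnd2 and -0.21 ± 0.10 for Cdkn1c, each nearer to 0 than with it, while Cdkn1b stayed at -0.46 ± 0.09. Organoid control 2 weighed on Cdc25a, Cdkn1c and Cdkn1b: without it the log2 fold changes were 0.63 ± 0.12, 0.58 ± 0.11 and -0.17 ± 0.12, and without control 1 they were 1.38 ± 0.12, 1.31 ± 0.11 and -0.52 ± 0.11. E2f6 moved less, at 0.56 ± 0.11 without control 2 and 0.67 ± 0.11 without control 1. With a single control left, these fits take its spread from the knockouts, so sizes alone are given here.

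Differences between effects were few. AT2 cells against 6-day lungs called 0 of 9 members, with 2 at an unadjusted p under 0.05, beside 1.06% of all genes called. 6-month lungs against 6-day lungs called 1 of 10, Cdkn1c, beside 2.73% of all genes called. Organoids against AT2 cells called 0 of 9 (2 at an unadjusted p under 0.05), in a comparison that called 9.29% of genes. The difference for Ccnd2, organoids minus AT2 cells, was -1.85 ± 0.78 (adjusted p = 0.192), and those for Cdkn1c and Cdc25a were 0.87 ± 0.30 (adjusted p = 0.118) and 0.69 ± 0.30 (adjusted p = 0.19). For Ccnd2 it was -2.96 without organoid control 1 and -0.74 without organoid control 2. With 1 library left out, those for Cdkn1c and Cdc25a ran from 0.50 to 1.23 and from 0.31 to 1.06. A p that misses the threshold does not show that the effects were alike.

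Levels are set side by side across tables as a description. Cdk4 was highest in organoids, at 294 ± 15.6 TPM in knockouts and 252 ± 6.18 TPM in controls (SD, n = 2 each), and these libraries lay apart from those of every other group. Ccnd1 was also highest in organoids, at 312 ± 7.33 TPM in knockouts and 239 ± 31.6 TPM in controls (SD, n = 2 each), and the organoid controls overlapped the knockout AT2 cells, which came next. Ccnd3 was lowest in organoids, at 73.2 TPM in knockouts and 54.8 TPM in controls, below 126 ± 4.13 TPM in knockout 6-month lungs, the next group up. Cdk6, Ccnd2 and Cdkn1c were lowest in sorted AT2 cells. For Cdkn1c the order ran from knockout 6-month lungs (109 ± 34.3 TPM) through control 6-day lungs (44.6 ± 3.58 TPM) and control 6-month lungs (40.2 ± 1.58 TPM), which overlapped, to knockout 6-day lungs (34.6 ± 6.79 TPM), organoids and AT2 cells. E2f5 was 25.0 TPM in organoids of both genotypes and 13.1 to 15.8 TPM by group mean elsewhere, where neighbouring groups overlapped.

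Other genes of the G1 pathway were taken from 5 lists of 28 genes in all: E cyclins and CDK2 partners, the CDK-activating kinase, other CDK inhibitors, pocket proteins, and other E2F and DP factors. In AT2 cells 11 of the 27 tested rose and none fell, where 7.85% of all genes were called, and their median log2 fold change was 0.44, beside 0.08 over all genes. Of the 9 genes around E cyclins and CDK2, 6 rose. Cks2, a small subunit that binds CDKs, was 80.5, 70.1 and 73.2 TPM in knockouts, against 44.2, 46.2 and 44.3 TPM in controls (log2 fold change 0.72 ± 0.08, limma adjusted p = 0.00449). Its relative Cks1b, which helps the Skp2 ubiquitin ligase to recognise p27, was 95.6, 79.3 and 86.1 TPM in knockouts, against 50.7, 47.2 and 52.9 TPM in controls (log2 fold change 0.78 ± 0.09, limma adjusted p = 0.00521). Cdc25b, a phosphatase related to Cdc25a, rose by 0.60 ± 0.08 (limma adjusted p = 0.00735), and Mnat1, the assembly factor of the CDK-activating kinase, by 0.56 ± 0.09 (limma adjusted p = 0.0142). All these genes lay without overlap between genotypes. Cks2, Cks1b and Cdc25b passed with any 1 library left out, while Mnat1 did not pass without knockout 3, control 2 or control 3 (limma adjusted p = 0.063, 0.0557 and 0.0536). Ccne1 (cyclin E1) was 13.6, 7.85 and 10.9 TPM in knockout AT2 cells, against 7.56, 6.79 and 6.76 TPM in control AT2 cells, apart without passing (log2 fold change 0.52 ± 0.17, limma adjusted p = 0.104), and Cdkn2a was under the filter there. Of 20 genes of S phase and mitosis, 19 rose in AT2 cells, against the same 7.85% of all genes, with a median of 0.84; Mki67 was 37.6 ± 2.68 TPM in knockouts and 19.96 ± 2.01 TPM in controls (SD, n = 3 each). The 9 of the 10 G1 genes that were tested had a median of 0.08 in the same cells. In these AT2 libraries 8 alveolar macrophage markers summed to 176 to 323 TPM in knockouts and 47.8 to 84.3 TPM in controls, and 5 of the 8 rose. Leukocyte markers summed to 69.3 to 114 TPM in knockouts and 13.7 to 54.0 TPM in controls, and erythrocyte genes to 285 to 481 TPM in knockouts and 81.3 to 160.0 TPM in controls. The part of these markers in the cell-cycle values was not tested. The count of 11 G1 pathway genes fell to 3 without knockout library 3, without control 2 or without control 3. It fell to 5 without control 1 and to 6 without knockout 1. Calls over all genes fell from 950 to 236, 187, 294, 348 and 501 in these fits, in the order named. The count of G1 pathway genes stayed at 11 without knockout 2, where calls over all genes were 1214. It was 7 and 5 under median-ratio and quantile scaling, 5 with no filter and 7 with the replicate block.

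In 6-day lungs 2 of 28 G1 pathway genes rose, a share near the 6.97% of all genes called; the count was 6 without knockout library 3, 4 without control 2, 4 and 5 under median-ratio and quantile scaling, and 0 without knockout 2, control 1 or control 3, or with no filter. Cks1b was 55.1, 67.7 and 63.3 TPM in knockouts, against 20.1, 41.8 and 20.7 TPM in controls (log2 fold change 1.22 ± 0.27, limma adjusted p = 0.0375). Ccne1, which activates CDK2 at the start of S phase, was 6.52, 9.64 and 7.71 TPM in knockouts, against 2.60, 4.40 and 3.04 TPM in controls (log2 fold change 1.05 ± 0.22, limma adjusted p = 0.0321). Both were without overlap between genotypes. The median of the 28 genes was 0.35 and that of the 20 genes of S phase and mitosis 0.91, beside -0.14 over all genes. Of the S phase and mitosis genes 1 was called; the count was 8 under either scaling, 9 with the replicate block, 7 without control 2, 3 without knockout 1 or knockout 3, and 0 without knockout 2, control 1 or control 3, or with no filter. In 6-month lungs 4 of 27 rose and none fell, a smaller share than the 29.8% of all genes called there; without knockout 1 or without control 2, 2 were called. Cdkn2a, which encodes p16 and p19Arf, was 3.74, 4.55, 4.05 and 3.72 TPM in knockouts, against 1.69, 1.96, 1.96 and 1.71 TPM in controls (log2 fold change 0.82 ± 0.11, limma adjusted p = 0.000244). Cks1b (0.48 ± 0.12, limma adjusted p = 0.0125), Cdc34, a ubiquitin-conjugating enzyme of the cell cycle (0.22 ± 0.06, limma adjusted p = 0.0243), and E2f1, an activating E2F factor (0.42 ± 0.13, limma adjusted p = 0.0316), rose as well. Cdkn2a and Cks1b were without overlap between genotypes and passed with any 1 library left out. Cdc34 and E2f1 overlapped: Cdc34 did not pass without knockout 1, 3 or 4 or without control 1 or 2, and E2f1 did not pass without knockout 1 or 3, without control 2, 3 or 4, or with no filter (limma adjusted p up to 0.0652 for Cdc34 and 0.0898 for E2f1).

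In organoids none of the 28 was called by limma, where 0.605% of all genes were called, and the median was 0.41. The 20 genes of S phase and mitosis had a median of 0.88 there, with none called. Of the 28 genes 21 had a positive log2 fold change, as had all 20 genes of S phase and mitosis. With 2 libraries a side, the absence of calls does not show that these genes were unchanged. Cdkn2a was 4.34 and 2.72 TPM in knockout organoids, against 18.5 and 56.2 TPM in control organoids, the opposite side from the 6-month lungs (log2 fold change -2.91 ± 0.57, limma adjusted p = 0.0701). Without control 2 the log2 fold change was -2.13, and without control 1 it was -3.68. Ccne1 was 13.1 and 16.4 TPM in knockouts, against 7.34 and 5.21 TPM in controls (log2 fold change 1.12 ± 0.21, limma adjusted p = 0.0701). Its log2 fold change was 0.91 without control 2 and 1.34 without control 1. Rb1, the retinoblastoma gene, was 8.37 and 7.99 TPM in knockouts, against 10.1 and 12.1 TPM in controls, and did not pass in any of the 4 comparisons. Cdkn1a, the p21 inhibitor, overlapped in all 4; in 6-month lungs it was 88.9 ± 4.03 TPM in knockouts and 99.5 ± 19.6 TPM in controls (SD, n = 4 each).

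**Figure D4:**
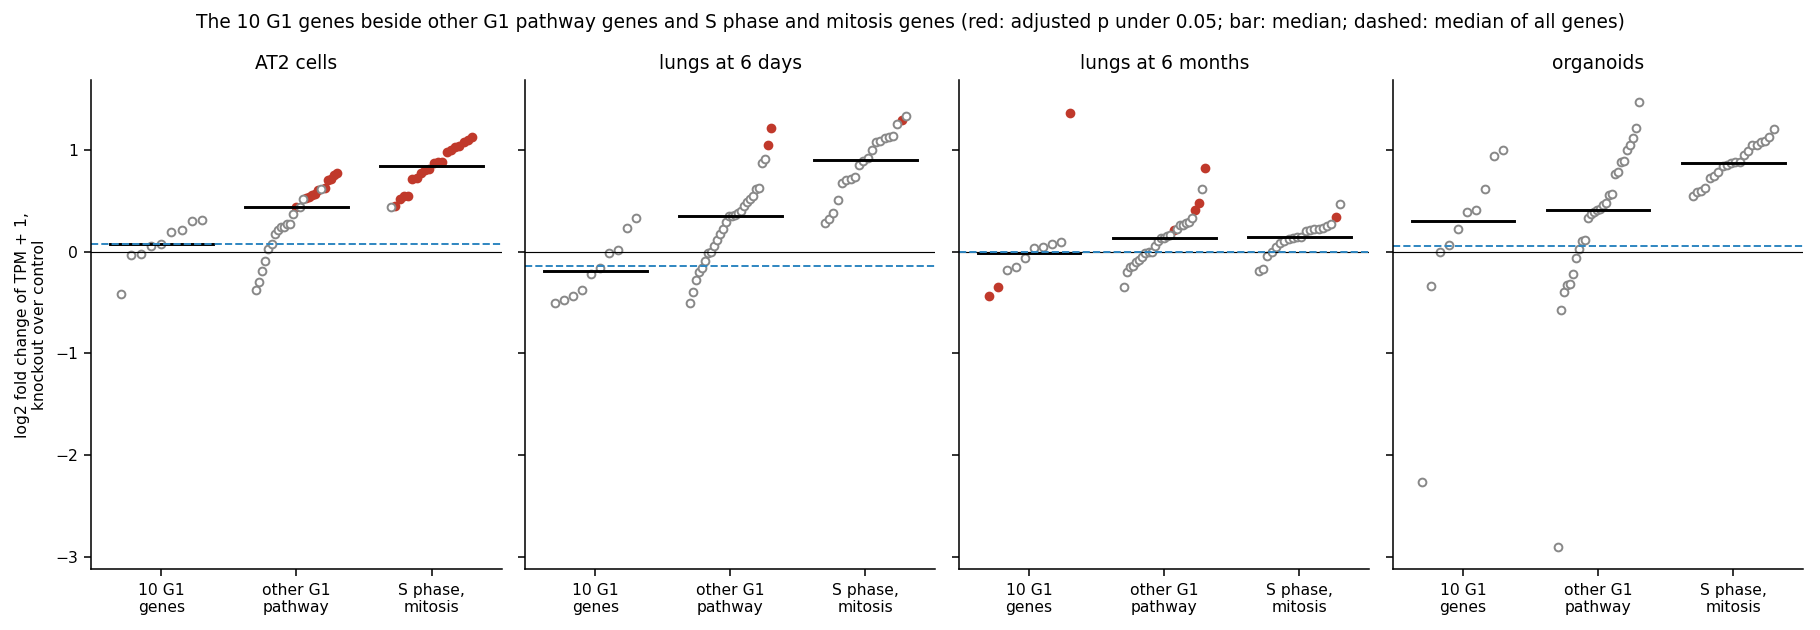
Log2 fold change of TPM + 1 (knockout over control) of the 10 G1 genes, 28 other G1 pathway genes and 20 genes of S phase and mitosis in each kind of sample; red points passed at an adjusted p under 0.05, black bars are medians and the dashed line is the median of all genes tested. In AT2 cells the medians of the genes tested are 0.08, 0.44 and 0.84 for the 3 sets, and in 6-month lungs they are -0.01, 0.14 and 0.14.

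Markers of other cell types moved with genotype in whole lungs. At 6 months all 8 alveolar macrophage markers rose, with sums of 5229 to 8718 TPM in knockouts and 596 to 820 TPM in controls, while all 8 endothelial markers fell, with sums of 2132 to 2448 TPM in knockouts and 3357 to 3559 TPM in controls. Fibroblast and smooth muscle markers summed to 999 to 1079 TPM in knockouts and 1219 to 1422 TPM in controls. Of these 8 markers 3 fell, 1 rose and 4 did not pass. AT1 markers summed to 5605 to 5972 TPM in knockouts and 6886 to 7875 TPM in controls, where 4 of 8 fell, 1 rose and 3 did not pass. All 6 club and ciliated markers fell, with sums of 97482 to 112120.0 TPM in knockouts and 174456 to 217995 TPM in controls. AT2 markers summed to 23890 to 29747 TPM in knockouts and 21376 to 23125 TPM in controls, with 5 of 8 called higher and none lower. Leukocyte markers summed to 2982 to 3343 TPM in knockouts and 1376 to 1806 TPM in controls, with 4 of 10 called higher and 1 lower. None of these markers was at 0. Their part in the values of Cdkn1c, Ccnd2, Ccnd3 and Cdkn2a was not tested. At 6 days the macrophage sums were 4127 to 13975 TPM in knockouts and 1449 to 1608 TPM in controls, with 5 of 8 markers called higher. The AT2 sums were 17210 to 20756 TPM in knockouts and 36837 to 43240 TPM in controls, with 2 of 8 markers called lower and none higher. Leukocyte sums were 2962 to 3767 TPM in knockouts and 2031 to 2282 TPM in controls, with 2 of 10 markers called higher and 1 lower. Endothelial sums were then 1374 to 3197 TPM in knockouts and 3396 to 3726 TPM in controls, with 0 of 8 markers called, and club and ciliated sums were 70202 to 86556 TPM in knockouts and 150493 to 174236 TPM in controls, with 4 of 6 markers lower and called. Their part in the lower 6-day values of Ccnd1, Ccnd2, Cdkn1b and Cdkn1c was not tested. In organoids, where leukocyte, endothelial and fibroblast lists each summed to under 20 TPM in every library and 2 leukocyte and 1 endothelial gene were at 0, AT2 sums differed between the controls as given above.

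The libraries do not keep the strand, so reads of genes that overlap on opposite strands cannot be told apart. Ccnd1 overlaps Oraov1 (LTO1 in GENCODE) by 1771 bases, Cdk4 overlaps Tspan31 by 641 bases and Ccnd3 overlaps Bysl by 361 bases. In AT2 cells Tspan31 was 92.3 ± 5.87 TPM in knockouts and 78.1 ± 4.20 TPM in controls, and Cdk4 was 121 ± 12.5 TPM in knockouts and 97.5 ± 3.30 TPM in controls (SD, n = 3 each). Oraov1 was 58.3 ± 4.69 TPM in knockouts and 58.1 ± 4.47 TPM in controls (SD, n = 3 each). In 6-month lungs Bysl was 8.48 ± 0.445 TPM in knockouts and 9.76 ± 0.559 TPM in controls (SD, n = 4 each), a small level beside that of Ccnd3. Ccnd2, Cdk6 and Cdkn1c overlap annotated antisense genes, of which 1, 9330179D12Rik at Ccnd2, was listed in the tables, at under 1 TPM by group mean.

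Profiles over the 8 group means, each centred on its own mean, were compared across 13523 genes with a mean of at least 1 TPM. The likeness is the root mean square difference on the log2(TPM + 1) scale, smaller being more alike. For Cdkn1c the nearest were Pik3cg, Nkain1 and Adamtsl3, at 0.34, 0.37 and 0.37, beside a spread of its own profile of 1.21. For Ccnd2 they were Hyal1, Mst1r and Unc5a, at 0.22, 0.23 and 0.24, and for Ccnd3 Fndc4, Rflnb and Ptms, at 0.14, 0.17 and 0.20. For Ccnd1 they were Hnrnph1, Utp20 and Dbt (0.08 to 0.10), for Cdk4 Pabpn1, Mrpl45 and Tyw5 (0.06 to 0.07), and for Cdk6 Armcx6, Uaca and Nt5dc2 (0.13 to 0.16). Cdc25a was most like Lyplal1, Eif2b1 and Hacd2 (0.07 to 0.13), Cdkn1b most like Zfyve27, Tut4 and Unk (0.06 to 0.09), E2f5 most like Aasdhppt, Senp8 and Gtf2h3 (0.06 to 0.07), and E2f6 most like Tdp1, Senp1 and Fam206a (0.07 to 0.08). None of the 10 genes was among the 3 nearest of another.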

How the data were processed

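RNA-seq libraries were poly(A)-selected and did not keep the strand, per the labels, and the submitters' processing notes name GRCm38. The authors deposited 4 tables of TPM, 1 for each kind of sample and 24 libraries in all; which aligner, quantifier, gene models and sort gates they used is not given in the sources used here. Where symbols recurred (2 of 24972 rows), the row with the higher mean was used. On log2(TPM + 1) of each table alone, limma 3.58.1 (R 4.3.3) fitted genotype with a variance trend and a filter of at least 1 TPM in as many libraries as the smaller group holds. Effects of 2 tables were compared through their difference and combined SE, with Benjamini-Hochberg adjustment over genes tested in both. The fits were tested on simulated data. Beside the 10 genes, the rule named per table up to 4 called pathway genes with the smallest adjusted p, Ccne1, Cdkn1a, Cdkn2a and Rb1 in every table, defining markers, and for each of the 10 the 3 most similar profiles. As alternatives, fits used a filter of 5 TPM or none, a pseudocount of 0.1, median-ratio scaling, quantile normalization, no trend, the replicate number as a block, and each library left out. The 10 genes and the lists were chosen with earlier results of these data known.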

Additional observations from a re-analysis of the deposited data

Results flagged for a closer look

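The effect of the knockout on Cdkn1c differed between 6-month lungs and 6-day lungs by 1.74 ± 0.26 on the log2 scale (adjusted p = 0.0013), the single difference of the 10 G1 genes that passed. All 4 knockout 6-month lungs lay above their controls, and all 3 knockout 6-day lungs below theirs. The times were separate tables from separate mice, and the later lungs came after booster tamoxifen, so time and dosing cannot be told apart.

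Among the control 6-month lungs, Cdkn1c was 42.5 TPM in 1 library, set off from the other 3 at 39.2 to 39.7 TPM. Of 20 groups of 4 libraries examined, this was the 1 in which a library stood off by Dixon's gap rule, and chance gives about 1 in 20. All 4 knockout libraries lay above it, and without that control the log2 fold change of Cdkn1c was 1.39.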

How the results depend on the processing

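Cdkn1c, Ccnd2 and Ccnd3 in 6-month lungs passed in each of the 7 other settings and with each of the 8 libraries left out. With 1 library left out, the number of G1 genes called ranged from 0 to 1 in 6-day lungs (Cdkn1b, without knockout 3), from 3 to 4 in 6-month lungs and from 0 to 6 in organoids (6 without control 1 and 6 without control 2, where all calls numbered 6967 and 3171). It was 0 in AT2 cells throughout. Effects that differed numbered 1 to 3 for 6-month lungs against 6 days and 0 to 5 for organoids against AT2 cells; without organoid control 1 there were 5. Quantile normalization and the replicate block each gave 4 calls in 6-month lungs, adding Ccnd1. Calls over all genes ranged, by setting, from 370 to 923 in AT2 cells (950 as reported), 661 to 1884 in 6-day lungs (987), 3694 to 4893 in 6-month lungs (4226) and 0 to 399 in organoids (75). With 1 library left out they ranged from 187 to 1214 in AT2 cells (lowest without control 2), 92 to 2050.0 in 6-day lungs (lowest without control 1, highest without knockout 3), 3618 to 3897 in 6-month lungs and 0 to 6967 in organoids, so the share of all genes called moves with them.

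Signs that turned belong to genes that did not pass, and the cause was not tested. Under median-ratio scaling the log2 fold change of Ccnd3 was -0.031 in AT2 cells and 0.15 in 6-day lungs. Under quantile normalization Ccnd3 was -0.025 and Cdkn1c -0.032 in AT2 cells. For AT2 cells minus 6-day lungs, median-ratio scaling gave -0.15 for Ccnd2, -0.18 for Ccnd3, -0.18 for Cdk4 and -0.037 for E2f5, and quantile normalization gave -0.12 for Ccnd2, -0.011 for Cdk4 and -0.050 for E2f5. For 6-month lungs minus 6 days they gave -0.0018 for Ccnd2 (median-ratio), -0.11 and -0.16 for Cdk6, and -0.054 and -0.084 for E2f6.

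With 1 library left out, signs turned within these ranges: in AT2 cells Cdkn1b -0.069 to 0.028 and E2f5 -0.10 to 0.050; in 6-day lungs Ccnd3 -0.21 to 0.33, Cdk6 -0.29 to 0.36, E2f6 -0.25 to 0.00 and Rb1 -0.062 to 0.43; in 6-month lungs Cdk6 -0.026 to 0.11 and Mnat1 -0.089 to 0.049; in organoids Cdk6 -0.19 to 0.33 and E2f5 -0.048 to 0.043. For AT2 cells minus 6-day lungs the ranges were -0.13 to 0.26 for Ccnd2, -0.28 to 0.27 for Ccnd3, -0.016 to 0.14 for Cdk4 and -0.16 to 0.11 for Cdc25a. For 6 months minus 6 days they were -0.055 to 0.33 for Ccnd2, -0.32 to 0.33 for Cdk6 and -0.061 to 0.19 for E2f6. For organoids minus AT2 cells they were -0.13 to 0.0055 for Cdk4 and -0.053 to 0.10 for E2f5.

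Samples with the same replicate number did not deviate together (correlations of deviations -0.173 to 0.172 in AT2 cells, -0.154 to 0.005 in 6-day lungs and -0.074 in organoids), so the number was not taken as a pairing. In 6-month lungs they were 0.08 to 0.217 and each library correlated best with its own number, a hint from the data. With the number as a block, 0, 0, 4 and 0 G1 genes were called in AT2 cells, 6-day lungs, 6-month lungs and organoids, and 1 difference of effects, that of Cdkn1c, passed.

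TPM hold no read numbers, so low values such as Cdk6 in AT2 cells carry an unknown counting error. With 2 libraries a side, organoid calls hang on which control is kept. Whole-lung values mix all cell types. Seed matches over all genes were searched in the longest annotated 3′ UTR alone. For the G1 genes, a search of all annotated 3′ UTRs also gave 7 with a site.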

Other observations

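The surroundings of Cdkn1c on chromosome 7 were read after its values were seen. Of 24 listed genes within 500 kb, 17 were tested in 6-month lungs, and 8 of these rose, 2 fell and 7 did not pass, beside 29.8% of all genes called. Tnfrsf26, a gene of the TNF receptor family, was 21.8, 25.6, 19.6 and 13.9 TPM in knockouts, against 2.17, 1.38, 2.87 and 2.83 TPM in controls (log2 fold change 2.68 ± 0.20, limma adjusted p = 2.17e-06). Its relative Tnfrsf23 was 7.84, 8.77, 10.7 and 6.65 TPM in knockouts, against 1.90, 1.35, 1.97 and 1.45 TPM in controls (log2 fold change 1.82 ± 0.15, limma adjusted p = 4.61e-06). Dhcr7, an enzyme of the last step of cholesterol synthesis, was 34.5, 36.1, 31.6 and 32.1 TPM in knockouts, against 12.1, 9.69, 13.2 and 13.4 TPM in controls (log2 fold change 1.41 ± 0.10, limma adjusted p = 1.73e-06). Slc22a18, imprinted in mice like Cdkn1c, rose by 0.50 ± 0.11 (limma adjusted p = 0.00626). Phlda2 and Kcnq1, 2 more imprinted genes of this region, did not pass, at -0.08 ± 0.20 and -0.05 ± 0.07. The genes named so far as risen were without overlap between the genotypes. Tspan32 also rose, with overlap (0.59 ± 0.15, limma adjusted p = 0.0122). The 2 that fell were R74862 (-0.39 ± 0.13, limma adjusted p = 0.0375) and Cd81 (-0.15 ± 0.04, limma adjusted p = 0.0259). Kcnq1ot1, under the filter and not tested, was 0.075 to 0.103 TPM in knockouts and 0.107 to 0.174 TPM in controls. In 6-day lungs, Tnfrsf26 was 7.48 TPM by mean in knockouts and 2.29 TPM in controls, and Tnfrsf23 was 11.1 and 2.85 TPM. In the same order, Dhcr7 was 25.2 and 14.2 TPM there and Tspan32 was 14.5 and 7.90 TPM. Slc22a18, at 8.86 and 11.4 TPM, and Cdkn1c, at 34.6 and 44.6 TPM, were lower in the 6-day knockouts. The part of cell types in these neighbour values was not tested.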
